A study of Rattus norvegicus and Mus musculus with 251 samples.

Results

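The 10 genes described here encode steps of adenylyl cyclase and cyclic AMP (cAMP) signalling in the mouse brain. They were chosen by symbol, as Adcy1, Adcy5, Adcy8, Gnal, Pde10a, Pde1b, Prkar2b, Creb1, Crem and Pde4b, and each symbol matched 1 row of a mouse table of read counts that holds 46078 genes. All 10 passed the filter on low counts in both brain regions. RNA came from 0.5 mm punches of the prefrontal cortex (PFC) and the nucleus accumbens (NAc, part of the ventral striatum) of C57BL6J mice of both sexes, in 62 libraries. The series also holds 189 rat libraries, which were not used here. Mice drank saline or a morphine solution, and the labels give 4 conditions. These are saline ("Sal"), chronic morphine ("Chronic mor"), and 24 h and 2 weeks after morphine ("Mor + 24h" and "Mor + 2W"). The PFC had 6 saline libraries (3 female, 3 male), 8 chronic (3 and 5), 9 at 24 h (4 and 5) and 7 at 2 weeks (3 and 4). The NAc had 7 saline libraries (3 female, 4 male), 8 chronic (3 and 5), 9 at 24 h (4 and 5) and 8 at 2 weeks (3 and 5). Age, dose and length of drinking were not given in the labels. The saline and morphine mice shared strain, and no label divided the mouse libraries into batches. Nothing in the labels says that each library came from a separate mouse, so p-values measure the spread between these libraries.

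Adenylyl cyclases turn ATP into cAMP. Receptors that couple to stimulatory G proteins raise their activity, and opioid receptors, which couple to inhibitory G proteins, lower it. Phosphodiesterases degrade cAMP. When cAMP binds the regulatory subunits of protein kinase A, the catalytic subunits are released, and among their substrates is the transcription factor CREB. Striatal projection neurons are known for a version of this pathway in which the G protein subunit encoded by Gnal couples dopamine and adenosine receptors to the cyclase encoded by Adcy5, and a rise in activity of the pathway during long opioid exposure is a textbook observation, described in the locus coeruleus and the NAc among other regions.

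Depth was 5182601 to 41532464 counts per PFC library and 22387525 to 43963295 per NAc library. The labels call the cell type neuron, but markers of other cells were abundant. The summed oligodendrocyte markers had group medians of 5459 to 6483 CPM (counts scaled to a common library size) in the PFC and 8135 to 9510 in the NAc, so the punches are read here as mixed tissue, in which fewer cells of a type and less RNA per cell cannot be told apart. A PFC library of the 2 weeks group (number 10) had the lowest depth, 5182601 counts. In it 21.1% of reads were not aligned, beside a median of 0.566%, and 10563 genes were detected, beside 18166 to 21142 in the other PFC libraries. It was 1 of 7 libraries that stood apart in regional markers, 2 from the PFC and 5 from the NAc (the D1 receptor gene Drd1 under 50 CPM, or the cortical glutamate transporter gene Slc17a7 over 100 CPM). The libraries numbered 27, labelled female, did not match that label in Y-linked genes. Several results are also given without the libraries that stood apart. Number 27 was kept as labelled, and the tests between sexes without it are not given here.

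The members occupy different loci, given here on GRCm38. Adcy1 lies at chr11:7063489-7178506, Adcy5 at chr16:35154877-35305738 and Adcy8 at chr15:64697084-64922296. The phosphodiesterase genes are Pde10a at chr17:8525372-8986648, Pde1b at chr15:103503034-103530052 and Pde4b at chr4:102087543-102607259. Prkar2b lies at chr12:31958476-32061296 and Creb1 at chr1:64532645-64604548, and Gnal and Crem are on chromosome 18. Exons of Gnal overlap those of Mppe1 and exons of Crem overlap those of Gm6225, so reads in those stretches may be split or lost for these members.

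Among the members, the leading cyclase differed between the 2 regions, and the leading phosphodiesterase, Pde1b, was the same in both. Per kilobase of exon, the most abundant member in PFC of saline mice was Adcy1, a cyclase stimulated by calcium and calmodulin, with a median of 107 RPKM (CPM per kilobase of exon, range 98.5 to 138, n = 6). Its range was separate from that of the next genes, Pde1b at 29.5 RPKM and Adcy5 at 29.2, which overlapped each other. Prkar2b followed at 17.5, Gnal at 11.6, Pde4b at 9.53 and Adcy8 at 5.53, and Creb1 (3.52), Pde10a (3.04) and Crem (2.49) were lowest. In the NAc of saline mice (n = 7) the order changed. Pde1b led with a median of 135 RPKM, and Adcy5 at 128 overlapped it. Gnal (50.6), Prkar2b (38.9), Pde10a (33.7) and Pde4b (14.9) came next, each overlapping its neighbour in the order. Adcy1 stood at 11.3 RPKM, a level that overlapped that of Pde4b and was separate from those of Creb1 (3.41), Adcy8 (2.88) and Crem (1.43).

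**Figure D1:**
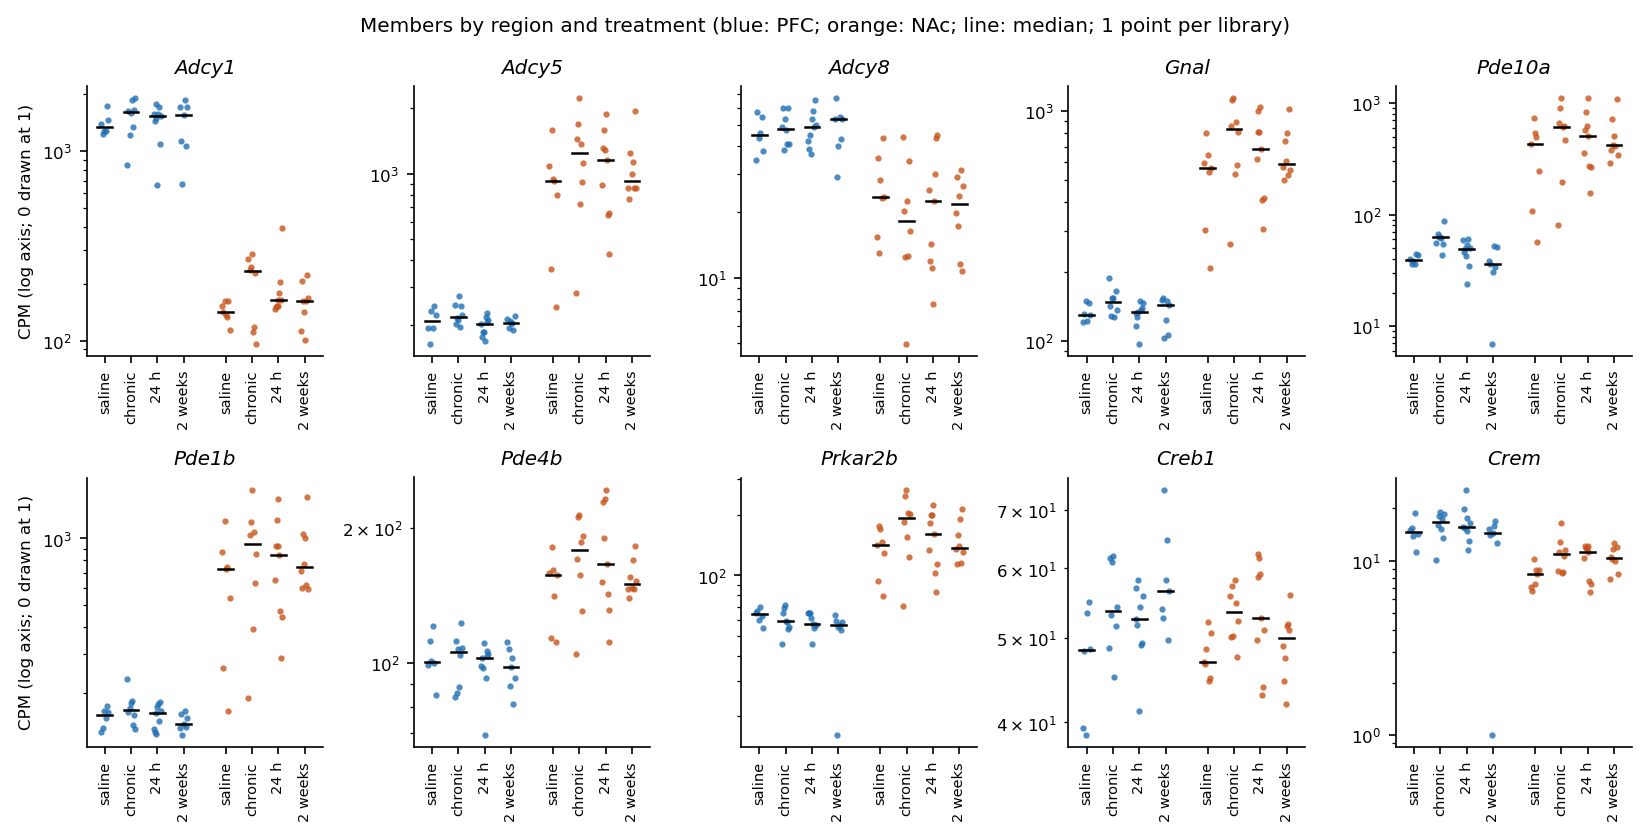
Expression in CPM of each of the 10 members in every library (log axis, points; a value of 0 is drawn at 1), by region and condition, with the bar at the group median. Adcy1 is higher in every PFC library than in any NAc library, Gnal the reverse, and the morphine groups overlap saline for every member.

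Differences between the regions were tested with edgeR's quasi-likelihood test over all 62 libraries, with Benjamini-Hochberg adjustment over 19266 genes, and a gene is said to be called at an adjusted p under 0.05. In saline mice, 9 of the 10 members were called, 6 higher and 3 lower in the NAc, where 35.9% of all genes tested were called, 17.4% higher and 18.5% lower. The median difference of the members was 0.78 on the log2 scale, beside 0.05 over all genes. The members were chosen with these regions known to differ, so the count describes the pathway and is read no further.

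Among the cyclases, Adcy1 was lower in the NAc and Adcy5 higher. In saline mice Adcy1 ranged from 1233 to 1727 CPM in the PFC (median 1342) and from 114 to 161 in the NAc (median 142). The difference, NAc minus PFC, was -3.29 ± 0.24 on the log2 scale (SE, adjusted p = 1.46e-16), a level 9.77-fold lower in the NAc. Across all conditions, all 32 NAc libraries lay below all 30 PFC libraries for Adcy1, a separation that 4.3% of the genes tested showed in either direction. Adcy5, the main cyclase of striatal projection neurons, ranged from 165 to 246 CPM in the PFC of saline mice (median 210) and from 244 to 1591 in the NAc (median 922). It was 4.06-fold higher in the NAc (2.02 ± 0.29, edgeR adjusted p = 1.19e-07). The NAc values for Adcy5 spanned a far wider range than the PFC values, and 31 of 32 NAc libraries exceeded every PFC library. Adcy8, another cyclase stimulated by calcium, ranged from 34.8 to 57.3 CPM in the PFC of saline mice and from 12.98 to 44.0 in the NAc. Its difference was -0.88 ± 0.30 (edgeR adjusted p = 0.0189), and the call was lost without PFC saline library 2 (adjusted p = 0.0624), NAc saline library 1 (0.0667) or NAc saline library 3 (0.0775).

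Gnal encodes the alpha subunit of the stimulatory G protein Golf. It ranged from 121 to 149 CPM in the PFC of saline mice (median 130) and from 208 to 801 in the NAc (median 566), and was 3.92-fold higher in the NAc (1.97 ± 0.24, edgeR adjusted p = 1.52e-09). Over all conditions the 32 NAc libraries all lay above the 30 PFC libraries.

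The phosphodiesterase genes were all higher in the NAc, by different amounts. Pde10a, which encodes an enzyme that degrades both cAMP and cGMP and is known for its abundance in striatal projection neurons, ranged from 35.9 to 44.8 CPM in the PFC of saline mice (median 39.1) and from 56.7 to 733 in the NAc (median 433). It was 9.37-fold higher in the NAc (3.23 ± 0.44, edgeR adjusted p = 3.83e-08). Pde1b, whose product is activated by calcium and calmodulin, ranged from 134 to 176 CPM in the PFC of saline mice and from 166 to 1203 in the NAc, a 4.15-fold difference (2.05 ± 0.32, edgeR adjusted p = 5.63e-07). For each of these genes, 30 of 32 NAc libraries exceeded every PFC library. Pde4b, which encodes an enzyme specific for cAMP, differed least, at 84.8 to 121 CPM in the PFC and 111 to 182 in the NAc (0.50 ± 0.14, 1.41-fold, edgeR adjusted p = 0.00268).

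Prkar2b encodes the RII beta regulatory subunit of protein kinase A. It ranged from 55.0 to 70.1 CPM in the PFC of saline mice and from 79.1 to 177 in the NAc, with no overlap, and was 2.10-fold higher in the NAc (1.07 ± 0.21, edgeR adjusted p = 5.7e-05). Of the transcription factor genes, Creb1 had almost the same level in both regions of saline mice, 38.7 to 54.9 CPM in the PFC and 44.6 to 52.2 in the NAc, with a difference of 0.01 ± 0.09 (edgeR adjusted p = 0.931). Crem, which encodes activators and the repressor ICER from alternative starts that a gene count cannot separate, was lower in the NAc, at 6.66 to 10.2 CPM against 11.3 to 18.8 (-0.87 ± 0.26, edgeR adjusted p = 0.00649).

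The same direction between regions held in the morphine groups for 8 members, Adcy1, Adcy5, Adcy8, Gnal, Pde10a, Pde1b, Prkar2b and Pde4b, all called in all 4 conditions. Counts of members called were 8 in chronic morphine mice, 9 at 24 h and 9 at 2 weeks, beside 41.1%, 43.3% and 41.8% of all genes. Crem was not called in chronic morphine mice (edgeR adjusted p = 0.0819) or at 2 weeks (0.364). Number 10 of the PFC had 0 counts of Crem, and without the libraries that stood apart in markers Crem was lower in the NAc in both conditions (-0.55, edgeR adjusted p = 0.00274, and -0.52, 0.00331). Creb1 was called at 2 weeks alone, at -0.28 with an edgeR adjusted p of 0.00688, and without those libraries the difference was -0.17 and the call was lost (0.109).

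**Figure D2:**
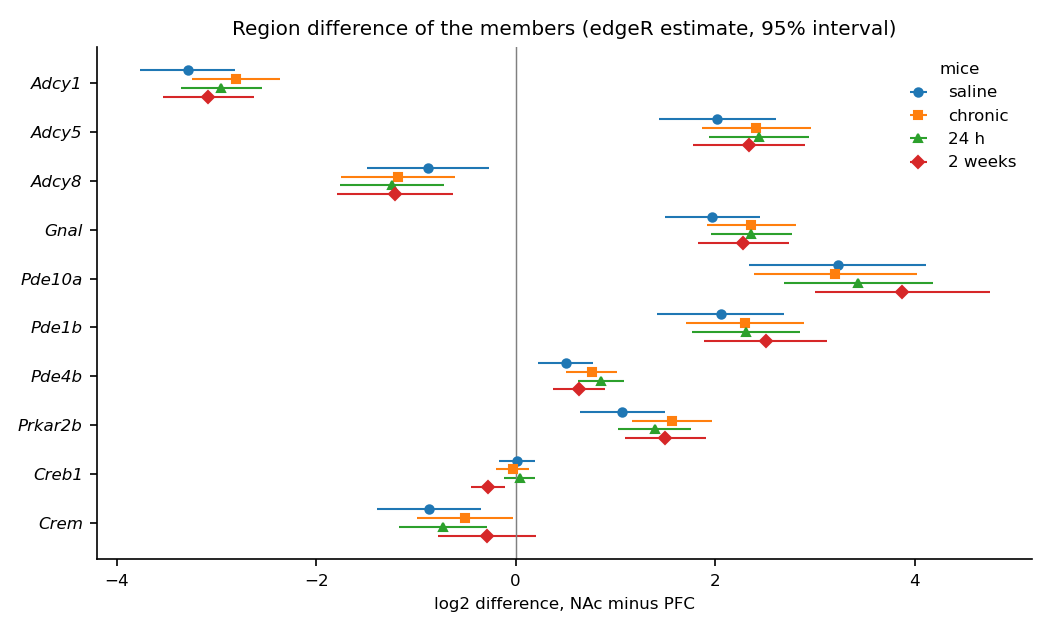
Difference between NAc and PFC for each member (log2 of the ratio, NAc minus PFC; points with 95% intervals from edgeR) in each of the 4 conditions. In all conditions 6 members lie above 0, from Pde4b nearest 0 to Pde10a farthest, and Adcy1 and Adcy8 lie below 0 in all of them.

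The NAc libraries differed widely among themselves in members of the striatal pathway, within every condition. Over all 32 NAc libraries the coefficient of variation was 57.1% for Pde10a, 47.7% for Pde1b, 44.9% for Adcy5 and 37.2% for Gnal, but 10.6% for Creb1. In the saline group, library 6 had 56.7 CPM of Pde10a and library 2 had 107, while the group median was 433. In the chronic group, library 25 had 80.7 CPM of Pde10a against a median of 613. These are 3 of the 5 NAc libraries set apart by markers.

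This spread moved with the level of striatal neuron markers. A striatal score was the mean log2 CPM of 10 markers of striatal projection neurons, among them Drd1, Drd2 and Adora2a. After the mean of each condition and sex was subtracted, the score correlated with Adcy5 at Pearson r = 0.989 and Spearman rho = 0.991, with Pde1b at 0.989 and 0.988, with Gnal at 0.988 and 0.975, and with Pde10a at 0.964 and 0.937 (n = 32). Prkar2b (r = 0.952, rho = 0.962) and Pde4b (r = 0.853, rho = 0.865) followed. Adcy8 went the other way, at r = -0.816 and rho = -0.88. For each of these 7 members the permutation p was 1e-05 for r and for rho, the smallest that 100000 resamples can give. The adjusted value over the 20 relations tested was 2.86e-05. The members were chosen with earlier results of these data known, and several are known striatal genes. The p-values therefore describe the spread and are read no further. Crem correlated at r = 0.625 and rho = 0.681 (permutation p = 0.00045 for r, adjusted 0.00112). Creb1 (r = 0.225, rho = 0.156, permutation p = 0.244 for r, adjusted 0.348) and Adcy1 (r = -0.0342, rho = -0.104, permutation p = 0.839 for r, adjusted 0.932) did not pass. Without libraries 6 and 25, the farthest from the median score, r was 0.98 for Adcy5, 0.987 for Pde1b, 0.978 for Gnal, 0.932 for Pde10a, 0.921 for Prkar2b, 0.8 for Pde4b, -0.86 for Adcy8 and 0.732 for Crem. In the PFC, the same relation to a score of cortical excitatory neuron markers passed for none of the 10 members over all 30 libraries (smallest adjusted permutation p of r 0.143, of rho 0.0809). These values rested on the 2 libraries farthest from the median score, numbers 10 and 25. Without them r was 0.648 for Adcy5 (0.11 with them), 0.636 for Pde1b (0.0357), 0.457 for Gnal (0.0775) and -0.479 for Crem (0.398), which was not tested.

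**Figure D3:**
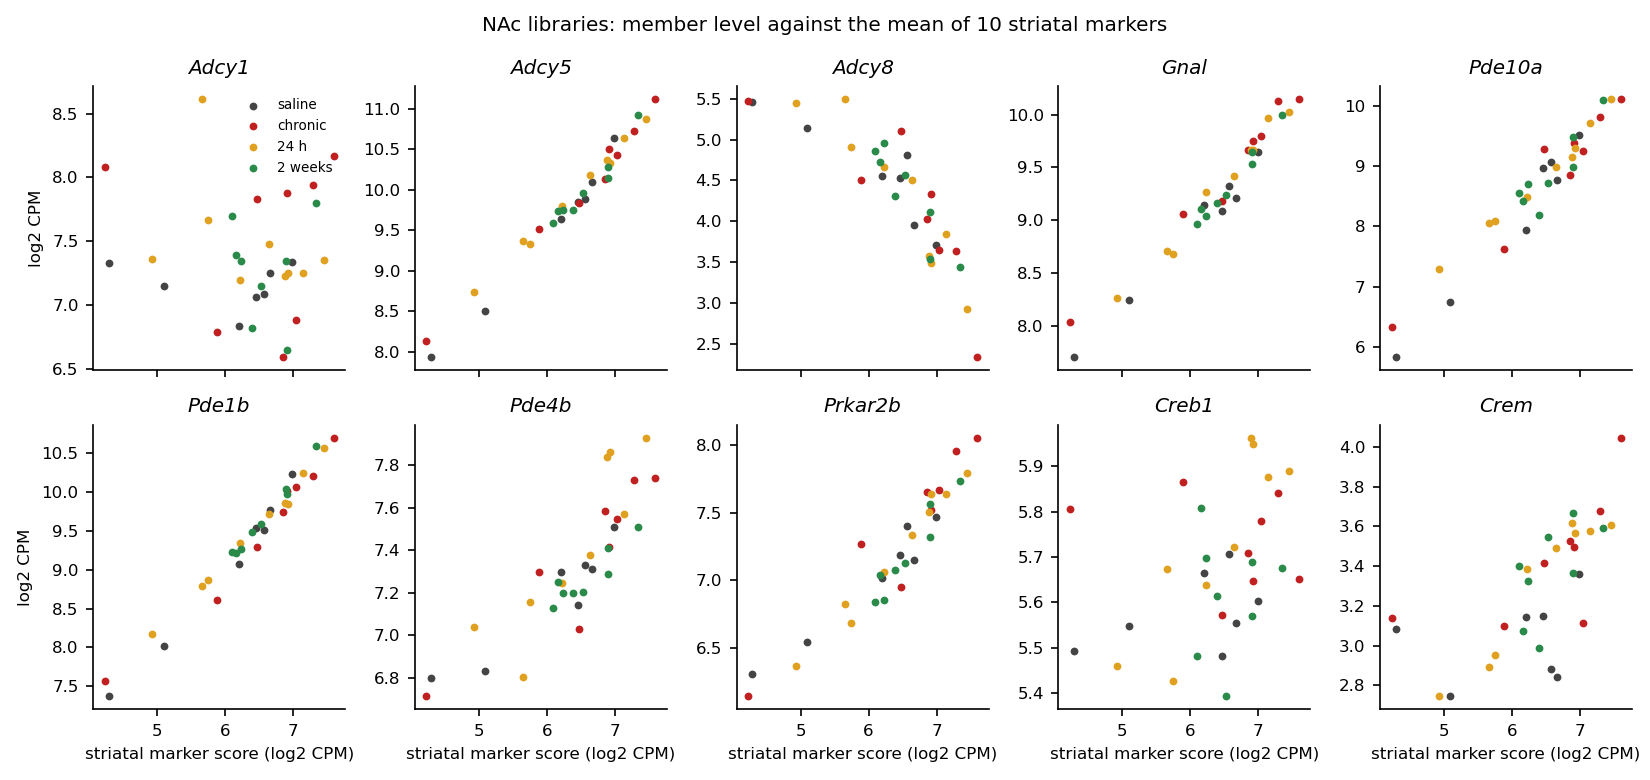
Log2 CPM of members in each NAc library against the striatal score (mean log2 CPM of 10 markers), coloured by condition. Adcy5, Pde1b, Gnal and Pde10a rise along the score in all conditions, Adcy8 falls, and Creb1 stays level.

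Genes that followed a member most closely were sought among 13096 genes in the NAc, as the highest Pearson r over the 32 libraries with condition and sex means removed, and are a description only. Adcy5 was followed by the D2 receptor gene Drd2 (0.993), Pde7b (0.991) and Bcr (0.991). Pde10a was followed by Rgs9 (0.987), a regulator of striatal G protein signalling, Scn4b (0.985) and Cd4 (0.982). Pde1b was followed by Syndig1l (0.995), Rgs9 (0.99) and Arpp19 (0.99), which encodes a protein kinase A substrate. For Gnal the closest was Cpne5 (0.991), for Prkar2b Plcl2 (0.98), for Pde4b Ypel2 (0.944), for Adcy8 Shisal1 (0.971), for Adcy1 Atrnl1 (0.88), for Creb1 Cnot9 (0.802) and for Crem Taf1c (0.768). All these points share library depth and the same marker gradient. The PFC values rested in part on number 10, and without it the highest were Pdxk for Pde1b (0.924), Itpr1 for Adcy1 (0.921), which encodes a calcium release channel, Wasf2 for Adcy5 (0.892) and Igsf9b for Pde10a (0.891), over 29 libraries.

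The main question of the design was whether expression changed with chronic morphine and after it. No member was called in any of the 6 comparisons of a morphine stage with saline. The counts, by edgeR, of members at an unadjusted p under 0.05 were 1, 0 and 1 in the PFC (chronic, 24 h and 2 weeks) and 3, 2 and 1 in the NAc, and DESeq2 also called 0 members in each of the 6. Over all genes the shares at that unadjusted p were 7.91%, 3.01% and 5.04% in the PFC and 15.2%, 12.1% and 6.44% in the NAc, against which the counts out of 10 are read. With adjustment, edgeR called 0.417%, 0.0779% and 0.00557% of 17966 genes in these PFC comparisons and 1.69%, 0.163% and 0.00544% of 18382 genes in the NAc. The 3 comparisons of a region share its saline libraries.

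Pde10a in the PFC was the member with the largest difference in chronic morphine mice. Its values in saline mice were 39.8, 35.9 and 38.4 CPM in females and 36.2, 44.8 and 43.6 in males. With chronic morphine they were 55.6, 67.2 and 62.7 CPM in females and 63.2, 62.3, 43.7, 55.1 and 88.0 in males. Of the 8 chronic libraries, 7 were above every saline library, and the other, a male at 43.7 CPM, lay within the saline range. The difference was 0.64 ± 0.23 on the log2 scale (95% interval 0.17 to 1.10, 1.56-fold, unadjusted p = 0.00869), which was not called (edgeR adjusted p = 0.399). It passed the threshold, at the same size, without number 10 of the 2 weeks group (0.64, edgeR adjusted p = 0.0449) and without the libraries that stood apart in markers (0.67, 0.0496). Calls over all genes rose as well without number 10. The cortical score was 7.30 ± 0.34 (SD, n = 8) in the chronic group and 7.17 ± 0.14 (SD, n = 6) in the saline group. Its part in the difference was not tested beyond the fit with both scores as covariates, where the difference was 0.56 (edgeR adjusted p = 0.224). The striatal score in the PFC was -3.05 in number 10 and 0.0850 to 1.76 in the other libraries, so number 10 weighs heavily in that covariate.

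At the later times Pde10a in the PFC was spread around the saline range. At 24 h it ran from 23.9 to 60.3 CPM (median 49.1), with 6 of 9 libraries above and 2 below all saline libraries (0.21 ± 0.22, edgeR adjusted p = 1). At 2 weeks it was 38.3, 36.0 and 6.98 CPM in females and 30.9, 51.9, 33.9 and 50.8 in males (-0.22 ± 0.23, edgeR adjusted p = 0.947), the 6.98 being number 10. Set directly against chronic morphine, the 2 weeks group was lower by a log2 difference of -0.86 ± 0.22, with 5 of 7 libraries below all chronic ones. This was the member closest to a call in the comparison, at an edgeR adjusted p of 0.0578, where 0 of 10 members and 0.824% of all genes were called. DESeq2 called it (-0.86, adjusted p = 0.00979), and so did edgeR without the filter on low counts (-0.85, 0.0292). It was also called without any of PFC libraries 8, 9, 10, 20 or 30 in turn (adjusted p = 0.0287 to 0.0494), and with number 10 left out the difference was -0.66. In the NAc the chronic difference of Pde10a was 0.59 ± 0.47 (edgeR adjusted p = 0.598), and the difference between the regions in the chronic effect was -0.02 ± 0.54 (edgeR adjusted p = 1).

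**Figure D4:**
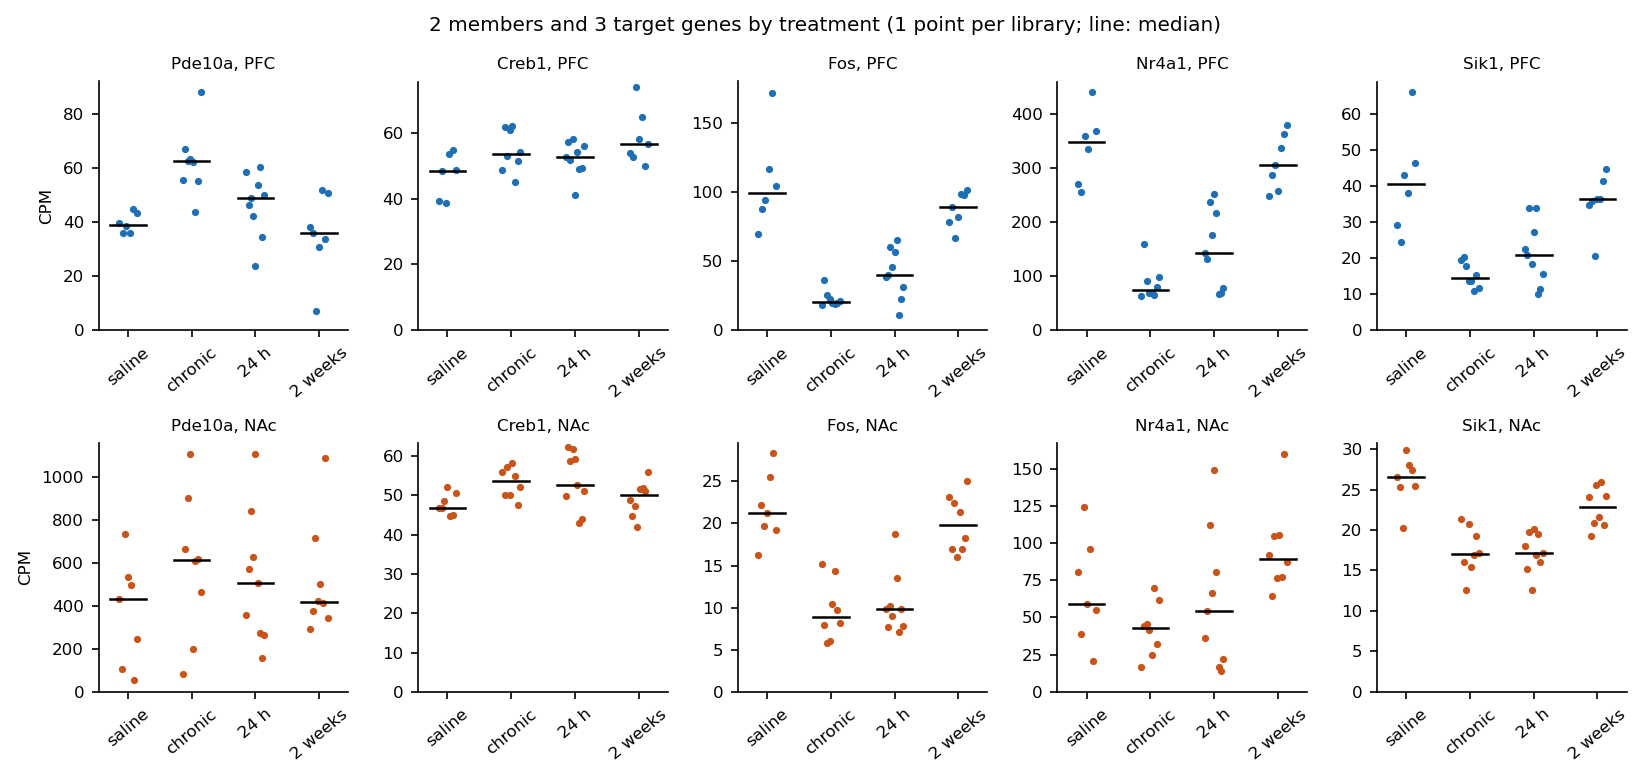
CPM in every library of Pde10a, Creb1 and the cAMP-responsive genes Fos, Nr4a1 and Sik1, in PFC and NAc, by condition, with group medians. In PFC, 7 of 8 chronic morphine libraries lie above all saline libraries for Pde10a, and all 8 lie below them for Fos, Nr4a1 and Sik1.

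Crem was the member with the smallest adjusted p among the NAc comparisons with saline. Its saline values were 7.11, 6.66 and 10.2 CPM in females and 7.30, 8.81, 8.42 and 8.79 in males. With chronic morphine they were 8.76, 11.2 and 12.7 CPM in females and 16.4, 8.51, 8.60, 10.6 and 11.4 in males, so that 5 of 8 exceeded all saline libraries. The difference was 0.42 ± 0.15 (1.34-fold, unadjusted p = 0.00753, edgeR adjusted p = 0.141). It was 0.30 ± 0.14 at 24 h (edgeR adjusted p = 0.39) and 0.32 ± 0.15 at 2 weeks (0.719), and with the scores as covariates 0.33, 0.31 and 0.26. In the PFC the chronic difference was 0.08 ± 0.32 (edgeR adjusted p = 0.986), with the wide error that number 10 gives.

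Creb1 had the lowest coefficient of variation of the 10 members in the NAc (10.6%), but not in the PFC (13.9%, beside 11.5% for Adcy5). In the PFC, saline values were 39.4, 48.3 and 38.7 CPM in females and 53.4, 54.9 and 48.6 in males, and at 2 weeks they were 53.9, 52.7 and 73.8 CPM in females and 58.2, 64.7, 49.8 and 56.6 in males. At 2 weeks 4 of 7 libraries exceeded all saline libraries. The difference was 0.33 ± 0.11 (unadjusted p = 0.00505, edgeR adjusted p = 0.854), and 0.23 without the libraries that stood apart. In the NAc it was 0.16 ± 0.07 with chronic morphine (edgeR adjusted p = 0.297), 0.16 ± 0.07 at 24 h (0.35) and 0.03 ± 0.07 at 2 weeks (0.962). The test of the difference between regions at 2 weeks gave -0.29 ± 0.12 for Creb1 (unadjusted p = 0.0228, edgeR adjusted p = 0.972).

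In the NAc, 9 of the 10 members had a positive difference from saline at each of the 3 stages, the exception each time being Adcy8. The median over members was 0.41 with chronic morphine, 0.29 at 24 h and 0.22 at 2 weeks, beside -0.01, -0.01 and 0.00 over all genes. The members' values are not independent of each other, and the striatal markers shared the direction. The score was 6.04 ± 0.98 (SD, n = 7) in saline, 6.53 ± 1.07 (n = 8) with chronic morphine, 6.40 ± 0.82 (n = 9) at 24 h and 6.57 ± 0.44 (n = 8) at 2 weeks. Of its 10 markers, 9 had a positive chronic difference and none was called, with a median of 0.54. With the striatal and cortical scores as covariates, the members' medians were 0.13, 0.14 and 0.07. Without the libraries that stood apart in markers they were 0.39, 0.16 and 0.02, and 9, 9 and 7 members were positive.

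Gnal was the member called in the fit with the scores, though Adcy1 had the largest difference there (0.50, edgeR adjusted p = 0.196). In the NAc its saline values were 592, 303 and 801 CPM in females and 641, 545, 208 and 566 in males, and with chronic morphine they were 263, 859 and 1117 CPM in females and 1135, 534, 893, 581 and 814 in males. Of the chronic libraries, 5 of 8 exceeded all saline libraries, and the low values, 208 and 303 in saline and 263 with chronic morphine, were the libraries with low striatal markers. The difference was 0.53 ± 0.28 (edgeR adjusted p = 0.365). With the scores as covariates it was 0.24 ± 0.05 and was called (edgeR adjusted p = 0.00588), and the 2 weeks group was then lower than the chronic group by a log2 difference of -0.17 (edgeR adjusted p = 0.0412). The score itself may carry part of a treatment effect, and this was not tested. The share of all genes called in the fit with the scores is not given here. Without the scores it was 1.69% for chronic morphine and 1.88% for 2 weeks against chronic, which do not stand in for it.

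Of the remaining members in the NAc, Adcy1 had a chronic difference of 0.51 ± 0.22 (unadjusted p = 0.0325, edgeR adjusted p = 0.274). Its chronic libraries split into a higher part (270, 235, 246, 287 and 228 CPM) and a lower part (111, 118 and 96.3), with saline between 114 and 161. Adcy5 differed by 0.48 ± 0.35, Prkar2b by 0.40 ± 0.22, Pde1b by 0.39 ± 0.38 and Pde4b by 0.19 ± 0.15, all with an edgeR adjusted p of 0.409 to 0.68. Adcy8 differed by -0.22 ± 0.37 (edgeR adjusted p = 0.83). The errors in the NAc were large, and the 95% interval for Pde1b reached 1.17 on the log2 scale, so a difference of up to that size was not excluded. In the PFC the errors were smaller. There the chronic differences of Adcy1 (0.04 ± 0.19), Adcy5 (0.11 ± 0.09), Adcy8 (0.09 ± 0.16), Gnal (0.16 ± 0.11), Pde1b (0.16 ± 0.10), Prkar2b (-0.08 ± 0.16) and Pde4b (-0.05 ± 0.10) were not called.

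**Figure D5:**
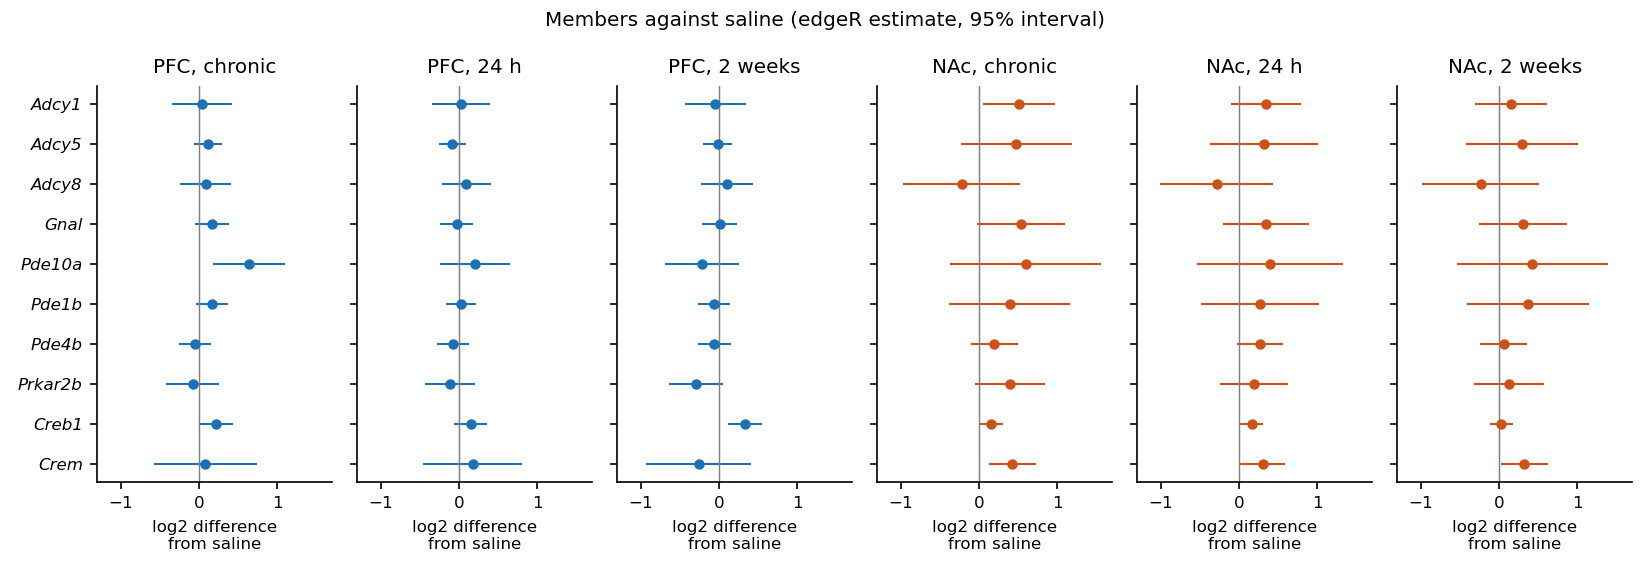
Difference of each morphine stage from saline for each member (log2 of the ratio, points with 95% intervals from edgeR), in PFC (left panels) and NAc (right panels). Intervals for the striatal members are wider in NAc, and the PFC interval for Pde10a with chronic morphine, 0.17 to 1.10, excludes 0 before adjustment.

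No member was called by edgeR in the other direct comparisons of stages. For 24 h against chronic in the PFC, 3 members (Adcy5, Gnal and Pde10a, all lower) and 5.04% of genes had an unadjusted p under 0.05, and 0.0278% of genes were called. For 2 weeks against chronic in the PFC these were 2 members (Pde10a and Pde1b, both lower) and 13.8% of genes. In the NAc 0 members had an unadjusted p under 0.05 in either comparison with the chronic group, beside 8.84% of genes at 24 h and 12.8% at 2 weeks, and 0.087% and 1.88% were called. The difference in effect between regions was called for no member at any stage (unadjusted p under 0.05 for 0, 1 and 1 members and 4.26%, 3.52% and 4.54% of genes by edgeR), where 0.0311%, 0.0208% and 0.00519% of genes were called. Pde4b at 24 h, at 0.36 ± 0.18, was the other member besides Creb1 with a small unadjusted p (0.0482, edgeR adjusted p = 1). No difference in effect between the sexes was called by edgeR for any member in either region, and 0 members had an unadjusted p under 0.05, beside 2.66%, 2.69% and 5.06% of genes in the PFC and 6.91%, 6.42% and 4.49% in the NAc. Of all genes, 0%, 0.0111% and 0% were called in the PFC and 0.0544%, 0.087% and 0% in the NAc. DESeq2 called no member in the tests of differences in effect between regions or sexes or in the other stage comparisons, apart from the call of Pde10a given above.

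The wider pathway was described with 5 lists of genes that are not members. Among 12 other cyclase and stimulatory G protein genes (11 tested in the NAc), none was called in any comparison of stages. For chronic morphine 2 or 3 had an unadjusted p under 0.05 by edgeR in NAc and PFC, beside 15.2% and 7.91% of all genes. Among 14 other phosphodiesterase genes the sole call was Pde4a, a relative of Pde4b, which fell by 0.44 from chronic morphine to 2 weeks in the PFC (edgeR adjusted p = 0.0169). Of 19 genes of protein kinase A, its inhibitors, anchors and exchange factors, Pkia, a kinase inhibitor, fell by 0.25 between the same stages in the NAc (edgeR adjusted p = 0.0306). Of 14 CREB family and coactivator genes, Atf4, a stress-responsive factor, rose by 0.61 between them in the PFC (edgeR adjusted p = 0.0108). Of all genes, 0.824% in the PFC and 1.88% in the NAc were called between these stages. A split of the libraries described below cannot be told apart from the condition in this comparison. Between regions in saline mice, calls higher and lower in the NAc were 3 and 6 of the 12, 6 and 4 of the 14, 8 and 3 of the 19, and 1 and 1 of the 14. Over all genes 17.4% were called higher and 18.5% lower. Named after their values were seen, the NAc was higher for Gng7 (2.31), a partner of the Gnal product, and for Ppp1r1b (3.21), which encodes the protein kinase A target DARPP-32.

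The last list held 22 textbook targets of cAMP and CREB, many of which also respond to other signals. In the PFC 6 fell with chronic morphine and none rose, where 0.417% of all genes were called. The list median was -0.27, beside 0.01 over all genes. Fos, an immediate early gene, ranged from 69.6 to 172 CPM in saline mice (median 99.3) and from 18.3 to 36.7 with chronic morphine (median 20.5), with no overlap (-2.17 ± 0.19, edgeR adjusted p = 1.13e-07). Nr4a1, an orphan nuclear receptor, ranged from 256 to 441 CPM and from 62.8 to 160 (-1.92 ± 0.19, edgeR adjusted p = 1.65e-07). Dusp1 (-1.68), Nfil3 (-1.10), Per1 (-1.11) and Sik1 (-1.35), which encodes a kinase that restrains CREB coactivators, fell too. These falls were already known from these files when the list was made, so they are not independent support for it. At 24 h 4 of the 22 were still lower in the PFC, Dusp1 (-1.38), Fos (-1.37), Nr4a1 (-1.19) and Sik1 (-0.92), where 0.0779% of all genes were called. At 2 weeks none was called. Against chronic morphine, 7 were higher at 2 weeks in the PFC, the 6 above and Fosb (1.16), where 0.824% of all genes were called.

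The NAc showed fewer of these calls. Of all genes 1.69% were called there with chronic morphine, 0.163% at 24 h and 1.88% at 2 weeks against chronic morphine. With chronic morphine Fos fell by 1.15 (edgeR adjusted p = 0.00201), Sik1 by 0.58 (0.0046) and Nfil3 by 0.70 (0.0312), and none rose. At 24 h Fos (-1.05) and Sik1 (-0.59) were lower, a pair of calls that was lost without the libraries that stood apart in markers, and at 2 weeks none was called. The chronic effect differed between regions for Dusp1 alone among the 22 (1.38 ± 0.26, edgeR adjusted p = 0.0106). At 2 weeks against chronic morphine Fos (1.06, edgeR adjusted p = 0.00151), Nr4a1 (1.23, 0.0471) and Nfil3 (0.62, 0.0473) were higher in the NAc. None of the 10 members fell with these targets by a called amount.

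A further split of the libraries ran with the groups. BC023719 (high in 37 libraries at 4.09 to 17.6 CPM, low in 25 at 0 to 0.197) and mt-Nd3 (high in 42 at 2.84 to 11.5 CPM, low in 20 at 0.0721 to 0.796) each had separate levels, and 30 of 30 numbers present in both regions had the same classes in both. All chronic libraries were high in BC023719 and all 2 weeks libraries were low, so for chronic morphine against 2 weeks this split and the condition cannot be told apart. Saline females were low in both genes and saline males high in both. Females at 24 h were high in both, and females at 2 weeks were high in mt-Nd3. The BC023719 split and the condition therefore cannot be told apart in females for chronic morphine or 24 h against saline. The same holds in males for 2 weeks against saline. The mt-Nd3 split and the condition cannot be told apart in females for 24 h or 2 weeks against saline. In saline mice sex and the split cannot be told apart, which also limits the tests of differences in effect between the sexes. Within males high in BC023719, Pde10a in the PFC ran from 43.7 to 88.0 CPM with chronic morphine (median 62.3, n = 5) and from 36.2 to 44.8 in saline (median 43.6, n = 3), a difference of 0.56 with a two-sided exact permutation p of 0.0714. Among males high in both genes (n = 3 and 3) the difference was 0.53, with an exact permutation p of 0.2, where the smallest possible is 0.1. In the same males Fos in the PFC ran from 18.98 to 22.7 CPM against 105 to 172 (exact permutation p = 0.0357) and in the NAc from 6.02 to 14.4 against 19.2 to 28.4 (n = 5 and 4, exact permutation p = 0.0159), each the smallest p the arrangements allow. Among males high in both genes the exact permutation p of Fos was 0.1 in the PFC (n = 3 and 3) and 0.0571 in the NAc (n = 3 and 4), again the smallest possible. With both classes as covariates, Pde10a in the PFC differed by 0.70 ± 0.40 with chronic morphine (edgeR adjusted p = 1) and Adcy1 in the NAc by -0.19 (edgeR adjusted p = 0.926).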

How the data were processed

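RNA-seq counts of 62 mouse libraries were used. The values in the mouse table the authors deposited are counts, whole and not normalized. The submitters' processing notes name FastQC, cutadapt, STAR, RSEM, Trimmomatic and HISAT2 and the builds GRCm38 and Rnor_6.0, with no role or version. Whether counting used strand is not given in the sources used here. The 189 rat libraries, whose deposited values are estimated counts, were not analysed here. Per the file's own special rows, medians of 5.43% of reads lay outside genes and 14.7% aligned to several places. These rows and 2 reporter rows were left out of library sizes and tests. Positions and exon lengths came from GENCODE M21.

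The 10 members and the gene lists were chosen with earlier results of these data known. Each region was fitted with edgeR 4.0.16 (R 4.3.3, quasi-likelihood, TMM scaling, filterByExpr) in cells of condition and sex, and contrasts were averaged over the sexes. Both regions were fitted together for differences between them. The fits were tested on simulated data. These covered the chronic comparison in each region, with the same spread for all genes and no marker gradient between libraries. CPM used TMM factors over all libraries, log2 CPM a prior count of 2, and RPKM the union of exons. Intervals are 95%. Depths were 5182601 to 43963295 counts per library. Alternatives were DESeq2 1.42.0, median-of-ratios scaling, no filter, 2 surrogate variables (sva 3.50.0), marker scores as covariates, leaving out each library, and the replicate number as a block between regions. Chosen after seeing the data were leaving out 7 libraries that stood apart in markers, leaving out number 27, and classes of BC023719 and mt-Nd3 as covariates.

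All 10 members are described. Other genes are named where called in a comparison of stages or of effects, at most the 5 with the smallest adjusted p per list. Sik1, Fosb, Gng7 and Ppp1r1b were named after their values were seen. The numbers shared by PFC and NAc libraries are not said to be animals. They were used as pairs only in the alternative with the replicate number as a block. The criterion that set 2 PFC libraries apart is not reported here.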

Additional observations from a re-analysis of the deposited data

Results flagged for a closer look

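Of 80 groups of members tested, 5 held a library far from the others by Dixon's criterion at 95%. That level flags 1 in 20 by chance when groups are independent, which these are not, as members share libraries. In the NAc 24 h group, library 24 had 392 CPM of Adcy1, while the others had 146 to 203, and it is a library that stood apart by its Slc17a7 level. In the NAc 2 weeks group, library 14 had 1943 CPM of Adcy5, and the others had 767 to 1245. Number 10 of the PFC 2 weeks group, the shallowest library, had 16.2 CPM of Prkar2b against 53.7 to 63.5, and 0 CPM of Crem against 12.7 to 16.9. In the PFC 24 h group, library 20 had 69.1 CPM of Pde4b against 92.9 to 111.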

How the results depend on the processing

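Between regions in saline mice, the 9 called members kept their direction under every alternative run, and a call was lost only for Adcy8, without the libraries given above. The difference of Creb1, which was not called, turned negative with the replicate block (-0.000325) and ranged from -0.0196 to 0.085 when each library was left out. The block changed no call among the members, but moved the counts over all genes for differences in effect between regions from 4 to 2 at 24 h and from 1 to 0 at 2 weeks. Deviations of same-numbered libraries correlated at 0.00751 to 0.216 (median 0.0683, over 0.1 for 5 of 30 pairs), and 14 PFC and 9 NAc libraries of 30 correlated best with their own number. Over the 10 members and 10 comparisons of stages, the sign changed for 23 of 100 values with the classes of BC023719 and mt-Nd3 as covariates, 20 with 2 surrogate variables, 18 with the marker scores, 10 without the libraries that stood apart, and 1 each with DESeq2, median-of-ratios scaling and no filter. Among the values given above, those with the classes were Creb1 in the NAc at 2 weeks (-0.0405), Adcy1 in the NAc with chronic morphine (-0.186), Pde1b in the PFC at 2 weeks against chronic (0.558), and with chronic morphine in the PFC Adcy5 (-0.0706), Adcy8 (-0.181), Pde1b (-0.189) and Pde4b (0.0647). With the scores they were Adcy1 (-0.0511) and Crem (-0.0179) in the PFC and Pde1b (-0.0215) in the NAc, all with chronic morphine. With surrogate variables they were Adcy8 (0.0648) and Pde1b (-0.0781) in the NAc with chronic morphine. The block turned the difference between regions in the chronic effect of Pde10a to 0.206. With chronic morphine, leaving out each library gave -0.0908 to 0.139 for Adcy1, -0.0128 to 0.186 for Crem and -0.123 to 0.02004 for Pde4b in the PFC, and -0.551 to 0.0766 for Adcy8 in the NAc. None of these values was called by edgeR before or after. The count of members called in comparisons of stages rose from 0 to 1 with the marker scores as covariates in the NAc (chronic, and 2 weeks against chronic, Gnal both times). It rose from 0 to 1, by Pde10a, in the PFC at 2 weeks against chronic without the filter and with DESeq2, and with chronic morphine without the libraries that stood apart. Leaving out each library gave 0 to 1 for both of these PFC comparisons. The cause of these rises was not tested. Calls over all genes are not given fit by fit beside them, but as ranges below.

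Counts over all genes moved more, given here as the edgeR count with the range over 7 alternatives and then over leaving out each library. Chronic morphine gave 75 calls in the PFC (0 to 181, 46 to 178) and 311 in the NAc (0 to 1054, 120 to 566), with 0 from the fit with the classes. The PFC count was highest, 178, without number 10, and the NAc count lowest, 120, without number 27 and highest, 566, without number 25. At 24 h the counts were 14 (9 to 46, 11 to 30) and 30 (4 to 167, 3 to 49), and at 2 weeks 1 (0 to 12, 0 to 1) and 1 (0 to 41, 1 to 5). Against chronic morphine they were 5 (0 to 35, 1 to 15) and 16 (0 to 170, 1 to 30) at 24 h, and 148 (2 to 432, 107 to 410) and 345 (0 to 995, 202 to 395) at 2 weeks. For differences between sexes edgeR gave 0 to 16 calls and DESeq2 7 to 59, and for differences in effect between regions 1 to 6 and 13 to 17. Crem had the lowest median level of the members in both regions (15.3 CPM in the PFC and 10.2 in the NAc), and so the largest relative counting error.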
